A study of Homo sapiens with 2 samples.

Results

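The 6 microRNAs (miRNAs) described here, miR-29a, miR-29c, miR-101, miR-148a, miR-148b and miR-152, are known repressors of enzymes that silence chromatin. They were chosen by assay name from a card of 365 miRNA assays, each name stood on 1 assay, and all 6 were detected in both samples. Mature miRNAs were measured by quantitative reverse-transcription PCR in CL1-5, a human lung adenocarcinoma line selected for its invasiveness. There was 1 RNA sample of cells carrying the empty vector pcDNA3.1 (the vector cells, or control) and 1 of cells overexpressing ANGPTL1, a secreted angiopoietin-like protein. Both were selected with the antibiotic G418 over 4 weeks to obtain stable cells. The sources used here do not say whether either is a clone or a pool. With no replicates there is no error, test or p-value for any difference, and every statement compares these 2 samples.

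A miRNA pairs through its seed, bases 2 to 8 from the 5′ end, with sites in messenger RNAs, which are then destabilised or translated less. DNA methyltransferases DNMT3A and DNMT3B place new methyl marks on DNA, and DNMT1 copies them after replication. EZH2 is the catalytic subunit of the Polycomb repressive complex that methylates histone H3 and silences genes. The miR-29 family is described as repressing DNMT3A and DNMT3B, miR-101 EZH2, and the family of miR-148a, miR-148b and miR-152 DNMT1. In lung and other cancers, loss of these miRNAs has been linked to raised levels of their targets. The card measured miRNAs only, so the levels of these enzymes and of ANGPTL1 are not known here.

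The mature sequences are shown for the families they form: the seed, in capitals, is shared within each target group and differs between them. The names of these 6 assays give no hairpin arm. Each was taken to be the mature miRNA of the 3′ arm in RefSeq (build GRCh38.p14), the arm known to give the abundant product. The files give assay names and numbers without sequences.

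miR-29a: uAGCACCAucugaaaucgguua
miR-29c: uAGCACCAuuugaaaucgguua
miR-101: uACAGUACugugauaacugaa
miR-148a: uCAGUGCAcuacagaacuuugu
miR-148b: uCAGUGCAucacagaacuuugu
miR-152: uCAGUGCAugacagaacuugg

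Counting positions from 1 at the 5′ end, miR-29a and miR-29c differ by 1 base, C10U from miR-29a to miR-29c, which lies outside the seed. From miR-148a to miR-148b the changes are C9U and U10C, and from miR-148b to miR-152 they are C10G and U20G, with miR-152 1 base shorter. The table holds 3 mature miRNAs with the seed AGCACCA, the third being miR-29b, which was not analysed here. It also holds 3 with CAGUGCA, all of them members, and 1 with ACAGUAC, miR-101. Whether assays of such similar sequences read each other's template was not tested.

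The miRNAs come from separate places in the genome. Mature miR-29a lies at chr7:130876748-130876769 on the minus strand, outside the span of any other listed gene. miR-29c lies at chr1:207801865-207801886, minus strand, within the long noncoding RNA gene MIR29B2CHG. miR-148a lies at chr7:25949922-25949943, minus strand, within the span of the noncoding gene LOC105375199. miR-148b, at chr12:54337278-54337299 on the plus strand, lies within the span of COPZ1, and miR-152, at chr17:48037174-48037194 on the minus strand, within that of COPZ2. COPZ1 and COPZ2 encode related subunits of the COPI vesicle coat. The sequence of miR-101 stands in the hairpins of 2 genes, MIR101-1 within the span of JAK1 and MIR101-2 within that of RCL1, so 1 assay reads the product of both; the copy in MIR101-2 is at chr9:4850345-4850365, plus strand. The table used gives gene spans without exons.

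Values are threshold cycles (Ct), the number of PCR cycles needed to reach a set fluorescence, so a cycle later means about 2-fold less template if each cycle doubles it. The level is given as delta Ct, the Ct of the miRNA minus that of the small nucleolar RNA RNU48 in the same sample, and a larger delta Ct means a lower level. RNU48 crossed at cycle 20.79 in vector cells and 21.21 with ANGPTL1. A total of 145 of the 365 miRNA assays were detected, that is below cycle 35, in both samples. They are counted here as miRNAs, although the names miR-126 and miR-9 each stand on more than a single assay. Of 13 assays for marker miRNAs of blood, muscle, liver, fibroblasts and neurons, 10 were detected in neither sample, and 3 stood at cycles between 32 and 35 where detected. Of the epithelial markers, miR-200c crossed at cycle 32.16 in vector cells and 30.77 with ANGPTL1, and miR-141 was detected in neither sample. In bulk RNA such as this, fewer cells carrying a miRNA and less of it per cell cannot be told apart.

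None of the 6 miRNAs was 2-fold higher or 2-fold lower in ANGPTL1 cells relative to RNU48. miR-101 had the largest difference of the 6, 1.72-fold lower in ANGPTL1 cells, and the other 5 lay within 1.25-fold of the control. miR-148a alone of the 6 had more signal in ANGPTL1 cells relative to RNU48, and less when no reference was used. The background is the 145 miRNAs detected in both samples, of which 18 (12.4%) differed by at least 2-fold, 11 higher (7.59%) and 7 lower (4.83%). A log2 ratio below 0 was found for 5 of 6 members and for 73 of the 145 (50.3%). The median log2 ratio, ANGPTL1 over control, was -0.18 for the members and -0.01 for the 145. The middle 50% of the 145 ratios ran from -0.41 to 0.33 and held every member but miR-101.

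**Figure D1:**
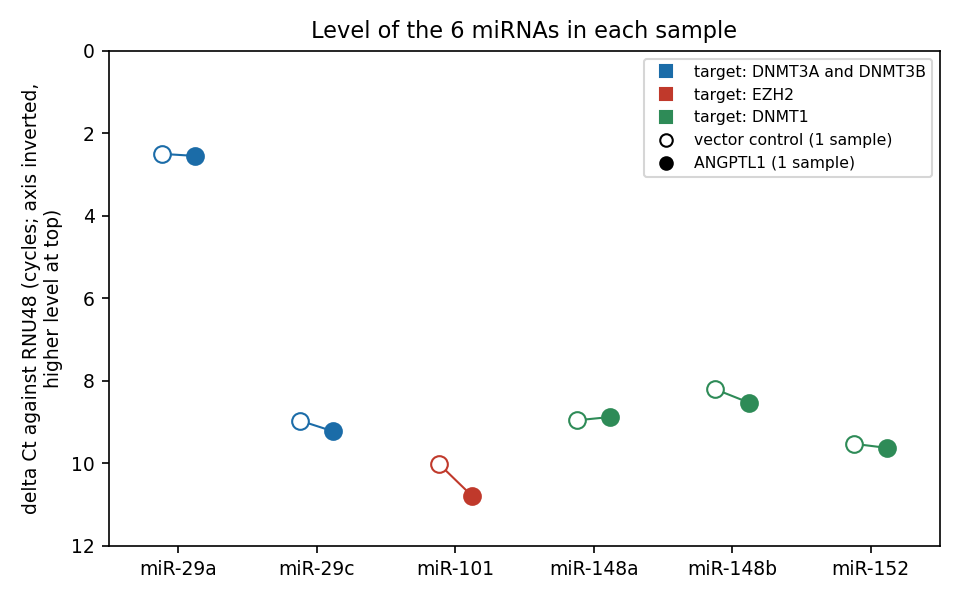
Delta Ct against RNU48 (cycles, vertical axis inverted so that higher levels stand at the top) of the 6 miRNAs, with open circles for the vector control and filled circles for ANGPTL1 cells, 1 sample each; colours mark the described target. miR-29a stands far above the others in both samples, at 2.50 and 2.55, and miR-101 lowest, at 10.01 and 10.79.

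In the DNMT3A and DNMT3B group, miR-29a was abundant and miR-29c was not. miR-29a crossed threshold at cycle 23.29 in vector cells and 23.76 with ANGPTL1, delta Ct 2.50 and 2.55. That is 17.7% of the RNU48 signal in vector cells and 17.1% with ANGPTL1, a log2 ratio of -0.05. Among the 145 miRNAs ordered by cycle, an order that needs no reference RNA, it held rank 13 in vector cells and 12 with ANGPTL1.

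miR-29c crossed at cycle 29.76 in vector cells and 30.44 with ANGPTL1. Its delta Ct was 8.97 and 9.23, or 0.199% and 0.167% of RNU48, a log2 ratio of -0.26. The seed partners therefore stood 6.47 cycles apart in vector cells and 6.68 with ANGPTL1. Of their summed signal, miR-29a made up 98.9% in vector cells and 99.0% with ANGPTL1. The log2 ratio of the sums was -0.05, that of miR-29a itself, and miR-29c held rank 87 in both samples. Readings of different assays depend on how well each assay amplifies, so shares and orders across miRNAs are approximate. Whether the miR-29c assay read any miR-29a template, which differs from its own by a single base, was not tested.

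The EZH2 group is miR-101 alone. It crossed threshold at cycle 30.80 in vector cells and 32 with ANGPTL1. Its delta Ct was 10.01 and 10.79, 0.097% and 0.0565% of RNU48, a log2 ratio of -0.78. miR-101 was the least abundant member in both samples, and its rank by cycle went from 100 in the control to 111 in ANGPTL1 cells. By log2 ratio it was rank 13 from the lowest of 145, while the other 5 members held ranks 44 to 83. At a size of 1.5-fold, miR-101 counted as lower, as did 28 of the 145 (19.3%).

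The distance of miR-101 from the other members can be read without RNU48. In the control it crossed 0.48 cycles after miR-152, 1.04 after miR-29c, 1.05 after miR-148a, 1.80 after miR-148b and 7.51 after miR-29a. In ANGPTL1 cells these gaps were 1.16, 1.56, 1.91, 2.26 and 8.24 cycles. The gaps were wider in ANGPTL1 cells by 0.46 (miR-148b) to 0.86 (miR-148a), which restates the differences of the log2 ratios: as miR-101 has the lowest ratio of the 6, all 5 gaps must widen.

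The ratio of miR-101 can be set beside those of miRNAs read at similar cycles. Another 25 miRNAs had a mean cycle within 1 cycle of that of miR-101 (31.4). Their log2 ratios ran from -3.58 to 3.04, with the middle 50% from -0.51 to 0.64. The ratio of miR-101 lay below that range, and 4 of the 25 had a ratio as low or lower. For miR-29a the 8 others within 1 cycle ran from -1.20 to 0.43. How much of either spread is measurement error was not tested, since no assay was repeated in a second sample.

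**Figure D2:**
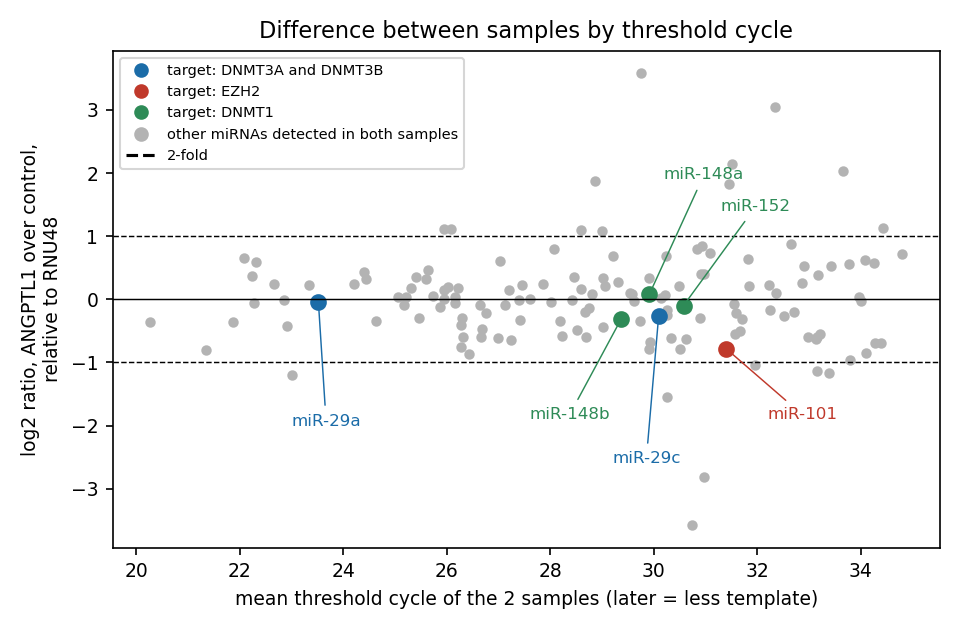
Log2 ratio, ANGPTL1 over control relative to RNU48, against the mean threshold cycle of the 2 samples for the 145 miRNAs detected in both; coloured points are the 6 members, grey points the others, and dashed lines mark 2-fold. All 6 members lie between the dashed lines, with miR-101 lowest at -0.78 and miR-148a highest at 0.08.

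In the DNMT1 group the 3 log2 ratios ran from -0.32 to 0.08. miR-148b was the most abundant, at cycle 29.00 in vector cells and 29.74 with ANGPTL1. Its delta Ct was 8.21 and 8.53, or 0.338% and 0.271% of RNU48, a log2 ratio of -0.32. It was 1.25-fold lower in ANGPTL1 cells.

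miR-148a crossed at cycle 29.75 in vector cells and 30.09 with ANGPTL1, delta Ct 8.96 and 8.88. Its signal was 0.201% of RNU48 in vector cells and 0.212% with ANGPTL1, a log2 ratio of 0.08. The raw cycle was 0.34 later in ANGPTL1 cells, less than the 0.42 of RNU48. miR-152 crossed at cycle 30.32 in vector cells and 30.84 with ANGPTL1. Its delta Ct was 9.53 and 9.63, 0.135% and 0.126% of RNU48, a log2 ratio of -0.10.

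Within the DNMT1 family the order was miR-148b, miR-148a, miR-152 in both samples, and the span from first to last was 1.32 cycles in vector cells and 1.10 with ANGPTL1. miR-148b made up 50.1% of the summed signal in vector cells and 44.4% with ANGPTL1, miR-148a 29.8% and 34.9%, and miR-152 20.1% and 20.7%. The summed signal was 0.674% of RNU48 in vector cells and 0.609% with ANGPTL1, a log2 ratio of -0.15. The widest difference of ratios in the family was 0.40, between miR-148a and miR-148b, whose gap narrowed from 0.75 to 0.35 cycles. The family had a median log2 ratio of -0.10, against -0.155 for the miR-29 pair and -0.78 for miR-101.

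Over all 6, the order from high to low was the same in both samples: miR-29a, miR-148b, miR-148a, miR-29c, miR-152, miR-101. miR-148a and miR-29c were 0.01 cycles apart in vector cells and 0.35 with ANGPTL1. With 1 sample a group, no pair of neighbours in this order can be shown to differ beyond a spread between samples.

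The choice among references changed these differences little, while leaving out a reference changed them more. With the median or the mean of the detected miRNAs as reference, miR-101 stood at -0.77 and -0.79 and miR-148a at 0.09 and 0.07. Without any reference all 6 were lower in ANGPTL1 cells, from -0.34 for miR-148a through -0.47 (miR-29a), -0.52 (miR-152), -0.68 (miR-29c) and -0.74 (miR-148b) to -1.20 for miR-101. Then miR-101 was past 2-fold, as were 29 of the 145 (20.0%), and 115 of the 145 (79.3%) lay below 0. The mean cycle of the 145 detected miRNAs was 28.71 in vector cells and 29.11 with ANGPTL1, a shift of 0.41 cycles beside 0.42 for RNU48.

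**Figure D3:**
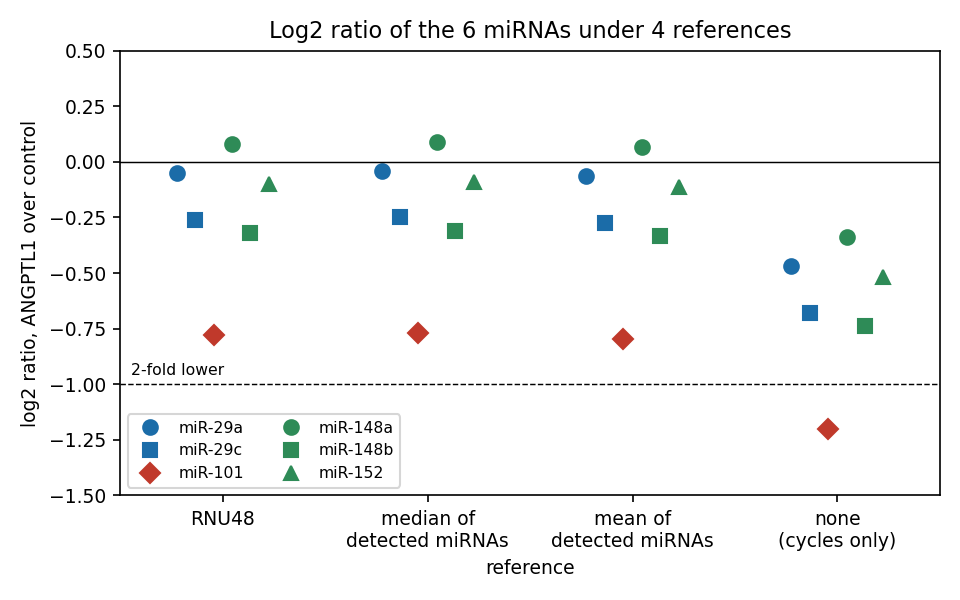
Log2 ratio, ANGPTL1 over control, of each of the 6 miRNAs with 4 references (RNU48, the median and the mean of the detected miRNAs, and none); colours mark the target group as in the plot of levels and the dashed line marks 2-fold lower. With the first 3 references each miRNA keeps nearly the same ratio, and without a reference all 6 lie below 0 and miR-101 passes 2-fold at -1.20.

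The authors' deposited table gives fold changes, ANGPTL1 over control, of 0.966 for miR-29a, 0.835 for miR-29c, 0.582 for miR-101, 1.06 for miR-148a, 0.801 for miR-148b and 0.933 for miR-152. They are computed from the same delta Ct values and are no separate measurement.

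For each member, the miRNA outside the group with the closest pair of delta Ct values over the 2 samples was found, with the straight-line distance in cycles as the measure. miR-27b was the closest to miR-148a, at 8.96 in vector cells and 8.87 with ANGPTL1, a distance of 0.01. The closest to miR-29c was miR-340 (0.21), to miR-152 miR-194 (0.25), to miR-101 miR-339 (0.296), to miR-29a miR-20a (0.322) and to miR-148b miR-23a (0.391). Of these 6, only miR-339 had a ratio below 0, at -0.55, with cycles of 31.09 and 32.06. These ratios are no separate finding, since the match used the same 2 delta Ct values that make up the ratio. A small distance therefore limits how far the ratio of the match can lie from that of its member. At the distances found, the sign of the ratio was shared for miR-101 and miR-148a. It differed for miR-29a, miR-29c, miR-148b and miR-152. The likeness rests on 2 values each.

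Other miRNAs described as repressors of chromatin regulators were set beside the members, from a list of 18 names. A total of 15 stood on 1 assay each, 2 were not analysed here (miR-29b and miR-138), and miR-126 stood on 2 assays of unstated hairpin arm. Of the 15, 8 passed the limit in both samples, 1 only in vector cells and 6 in neither. Among the 8, 1 was at least 2-fold higher and 0 were 2-fold lower, 3 lay above 0 and 5 below (2 and 6 without a reference), and the median log2 ratio was -0.015, beside -0.01 for all 145. Of the 145, 7.59% were at least 2-fold higher, 4.83% at least 2-fold lower and 50.3% below 0 (79.3% without a reference), so the counts of the list lay near the background.

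The detected EZH2 repressors other than miR-101, miR-26a and miR-26b, lay above 0 relative to RNU48; without a reference miR-26a was at -0.17 and miR-26b at 0.05. miR-26a crossed at cycle 24.13 in vector cells and 24.30 with ANGPTL1, a log2 ratio of 0.25, and miR-26b at 25.67 and 25.62, a ratio of 0.47. Both read much earlier than miR-101, and miR-124a and miR-214 were detected in neither sample. Of the DNMT repressors, miR-342, described for DNMT1, had a ratio of -0.01 at cycles 27.19 and 27.62, and miR-143 and miR-185 stood at cycle 40 in both samples. The 2 assays named miR-126 had ratios of 0.33 and -0.41.

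Among repressors of further regulators, miR-200c, which represses the Polycomb protein BMI1, was past 2-fold, at cycle 32.16 in vector cells and 30.77 with ANGPTL1, a ratio of 1.82. miR-203, also described for BMI1, was at -0.30, and miR-200b, described for the EZH2 partner SUZ12, was detected in neither sample. miR-140, which represses the histone deacetylase HDAC4, was at -0.29, and miR-449, described for HDAC1, at -0.02. miR-449b passed the limit only in vector cells, at cycle 33.95 against 35.21, so ANGPTL1 cells had at least 1.55-fold less with the later cycle set to 35. miR-34a, a repressor of the deacetylase SIRT1, was at -0.17. The muscle miRNA miR-1, described for HDAC4, was later than cycle 35 in both samples.

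**Figure D4:**
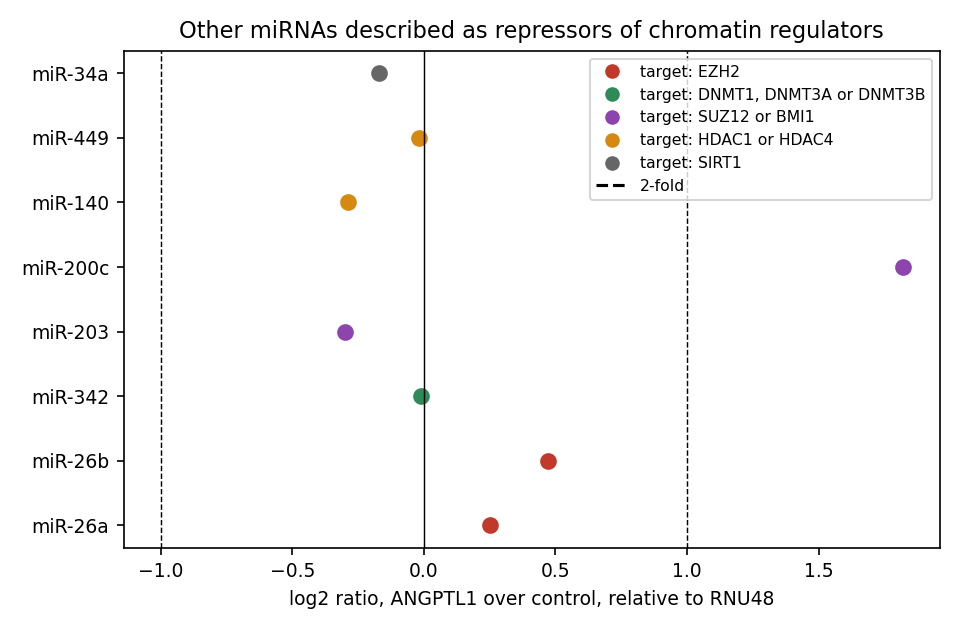
Log2 ratio, ANGPTL1 over control relative to RNU48, of the 8 listed miRNAs of other chromatin regulators that were detected in both samples, 1 point each, coloured by described target; dashed lines mark 2-fold. miR-200c lies past 2-fold at 1.82, and the other 7 lie between -0.30 and 0.47.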

How the data were processed

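The authors ran TaqMan Low Density Array cards (Human MicroRNA Panel version 1.0) with 40 cycles on cDNA from 500 ng of total RNA, per the labels' protocols. The deposited tables give, per the file headers, the average Ct, the delta Ct against RNU48, and the fold change, a ratio of ANGPTL1 over control from the difference in delta Ct. The sources used here do not state the wells averaged, threshold setting or software. Deposited delta Ct differed from the deposited cycles by at most 0.01.

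Computed here with Python 3.11.15 and pandas 2.3.3 was the log2 ratio, delta Ct of vector cells minus delta Ct of ANGPTL1 cells. Detection meant below cycle 35, and a fold size of 2 was counted among miRNAs detected in both samples. The arithmetic was checked on simulated cycles without noise, which says nothing about measurement error. Precision is limited by 1 sample a group.

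Named were the 6 members, RNU48, listed miRNAs of chromatin regulators detected in at least 1 sample, and the closest miRNA to each member. List members detected in neither sample and the epithelial marker miR-141 were named afterwards. A further target group of the planned list is not reported here. Members and lists were chosen with earlier results of these data known. Alternatives were other references, the authors' fold change, detection limits of 32 and 38, and 1.5-fold.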

Additional observations from a re-analysis of the deposited data

How the results depend on the processing

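Without normalization the median log2 ratio was -0.575 for the miR-29 pair, -1.20 for miR-101, -0.52 for the DNMT1 family, -0.60 for all 6 members and -0.435 for the 8 listed miRNAs of other chromatin regulators, each lower by 0.42, the difference in RNU48, and 1 member (miR-101) was 2-fold lower instead of 0. With the mean cycle of the detected miRNAs as reference these medians were -0.17, -0.79, -0.11, -0.19 and -0.030. A 1.5-fold size counted 1 member as lower, again miR-101. With a detection limit of cycle 32, miR-101, at 32 in ANGPTL1 cells, drops out, so the EZH2 group has no value and the median of the other 5 members was -0.10; that of the listed miRNAs was -0.01 over 5, with 0 past 2-fold since miR-200c drops out. With a limit of 38 the listed median was -0.075 over 10. The median of the detected miRNAs as reference moved no value by more than 0.01, and the authors' fold change repeats the main ratios by construction. No paired analysis was possible because neither group has a second sample, so leaving out a replicate was not possible.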
